A study of Mus musculus with 12 samples.

Results

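The comparison described here set Esrrb_R cells 3 days after withdrawal of doxycycline (Dox) against the same cells kept in Dox at day 0. Its members were all genes read by probe sets that carry exactly 1 gene symbol, averaged per symbol, which gave 19938 genes on 6 of the 12 arrays of the time course (3 at day 0 and 3 at day 3). Esrrb_R is a clonal rescue line of mouse embryonic stem cells (ESC). In it a lentiviral short hairpin RNA depletes endogenous Esrrb, while expression of an exogenous, hairpin-resistant Esrrb from a GFP-tagged cassette depends on Dox. The day 0 cultures received 1 µg/ml Dox and the day 3 cultures received none, and both carried the hairpin and were grown in serum with Lif. Stocks of the line grow on feeder fibroblasts of mouse embryos, whereas the methods state that cells for experiments were kept on gelatin without feeders. Probes made from total RNA were hybridized to Affymetrix Mouse Gene 1.0 ST arrays, and the values are log2 signals made by the Robust Multichip Average. Each day had 3 biological replicates. No array controls for Dox or for time alone, so loss of Esrrb, removal of Dox and time in culture cannot be told apart. In RNA from whole cultures, fewer cells of a type and less RNA per cell cannot be told apart either.

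Esrrb is an orphan nuclear receptor that binds enhancers of ESC together with Oct4, Sox2 and Nanog. Mouse ESC in serum and Lif resemble the naive epiblast of the blastocyst, and on leaving that state they lose factors such as Klf4, Tfcp2l1 and Nr0b1 and gain those of the later, primed epiblast, such as Fgf5 and Zic2. MicroRNAs are cut from hairpin precursors, and bases 2 to 8 of the mature strand, the seed, pair with target messenger RNAs.

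Among the strongest rises at day 3 were microRNA precursors of 2 clusters. Both held the seed AUUGCAC, and the hairpins of the Mir302/Mir367 cluster also held the seeds of the miR-302 family, known for its abundance in primed pluripotent cells. The mature strands are shown because the array read the precursor or its primary transcript and not the mature product. They are taken from RefSeq (GRCm38.p6), with the seed in capitals.

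mmu-miR-302b-3p: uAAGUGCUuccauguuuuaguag
mmu-miR-302c-3p: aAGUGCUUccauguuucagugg
mmu-miR-302d-3p: uAAGUGCUuccauguuugagugu
mmu-miR-367-3p: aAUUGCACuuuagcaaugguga
mmu-miR-363-3p: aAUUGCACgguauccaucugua
mmu-miR-92a-3p: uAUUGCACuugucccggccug
mmu-miR-106a-5p: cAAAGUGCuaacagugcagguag
mmu-miR-20b-5p: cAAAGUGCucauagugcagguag

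All 5 precursors of the Mir302/Mir367 cluster (chr3:127545228-127545807 in GRCm38.p6, within the bounds of Larp7) were higher at day 3, where 13.5% of all genes were called higher. Mir302c read 5.38, 5.28 and 5.45 on the day 0 arrays and 7.80, 7.43 and 7.68 on the day 3 arrays. The groups did not overlap, and the log2 change was 2.27 (standard error 0.19, adjusted p = 1.6e-06). The changes of Mir367, Mir302a, Mir302d and Mir302b were 2.09, 2.07, 2.04 and 1.94, also without overlap between the days. Larp7, which was matched by position without regard to strand, differed by 0.15, short of the threshold (adjusted p = 0.086). Day 1 gave a median change of 0.02 for the 5 precursors. Between days 3 and 5 all 5 rose again, with changes from 1.30 for Mir302a to 1.43 for Mir367, in a comparison that called 13.0% of all genes higher.

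The miR-106a-363 cluster on the X chromosome (chrX:52741693-52742567) had 4 of its 5 precursors called higher and none lower. Mir363 read 4.82, 4.78 and 4.92 at day 0 and 7.68, 7.81 and 7.71 at day 3, a change of 2.89 (standard error 0.09, adjusted p = 1.3e-09). With Fndc3c1 (2.89) it was the largest rise among the named genes. Mir106a rose by 1.01, Mir20b by 0.81 and Mir19b-2 by 0.55, whereas the difference of Mir92-2 was 0.24 (adjusted p = 0.07). In the same comparison 4 of these 5 precursors were lower at day 5 than at day 3 (Mir363 read 6.80, 6.59 and 6.82 at day 5, adjusted p = 7.8e-06), where 12.2% of all genes were called lower. The related cluster of Mir17 was chosen for comparison after the values were seen. Its members Mir17, Mir18, Mir19a, Mir19b-1 and Mir20a had a value, and Mir92-1 had none. None of the 5 measured precursors was called higher by limma (0 also at an unadjusted p under 0.05), Mir19b-1 was lower (-0.31, adjusted p = 0.015), and the 5 differences ran from -0.31 to -0.15. The methods' stricter test asks for any difference among days 0, 1, 3 and 5, with the direction taken from day 3 against day 0. It called 3 of 5 precursors of Mir302/Mir367 and 1 of 5 of miR-106a-363. All 10 lie below the median brightness, so a fit without dim genes did not test them.

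A further group of precursors came from the imprinted Dlk1-Dio3 region of chromosome 12 (chr12:109563692-109743795), a locus whose long noncoding RNA Meg3 and microRNAs are expressed from the maternal allele. Of 40 measured precursors, 24 were higher and none was lower (limma, 0 lower also at an unadjusted p under 0.05), and in 27 every day 3 array lay above every day 0 array, against 19.8% of all genes. The median change of the 40 was 0.49, that of all genes 0.00. The other 246 microRNA precursors on the array had 11 members higher, 7 lower and a median of 0.02. Mir300 read 6.10 ± 0.12 (SD, n = 3) at day 0 and 7.47, 7.26 and 7.20 at day 3 (change 1.21, standard error 0.09, adjusted p = 7.2e-07). Mir379 had the largest change (1.32) but also the widest day 0 spread, from 3.71 to 4.85. Mir379 and Mir411 (0.77) share a seed in their 3p strands, and those of Mir380 (1.08) and Mir300 differ from it, as the mature sequences show.

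mmu-miR-379-3p: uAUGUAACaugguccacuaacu
mmu-miR-411-3p: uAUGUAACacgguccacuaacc
mmu-miR-380-3p: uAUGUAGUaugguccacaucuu
mmu-miR-300-3p: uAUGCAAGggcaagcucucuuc

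Among 76 mature strands listed for this region, from precursors called or not, there were 74 different seeds. The group was taken by position, so its shared position is not a result. Meg3 read 10.22, 10.03 and 10.16 at day 0 and 10.99, 11.16 and 11.21 at day 3, a rise of 0.98 (standard error 0.08, adjusted p = 8.8e-07). Rian, another long noncoding RNA of the locus, differed by 0.24 (adjusted p = 0.17, not called), and no call was made for Dlk1 (-0.04, adjusted p = 0.78) or Dio3 (-0.05, adjusted p = 0.82), the protein-coding genes that bound the region. Of the 40 precursors, 21 were lower at day 5 than at day 3, and the median change against day 0 was 0.15 at day 1 and 0.10 at day 5. Without genes below the median brightness 11 of the 40 remained tested and 6 were called, and the methods' stricter test called none of the 40.

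**Figure D1:**
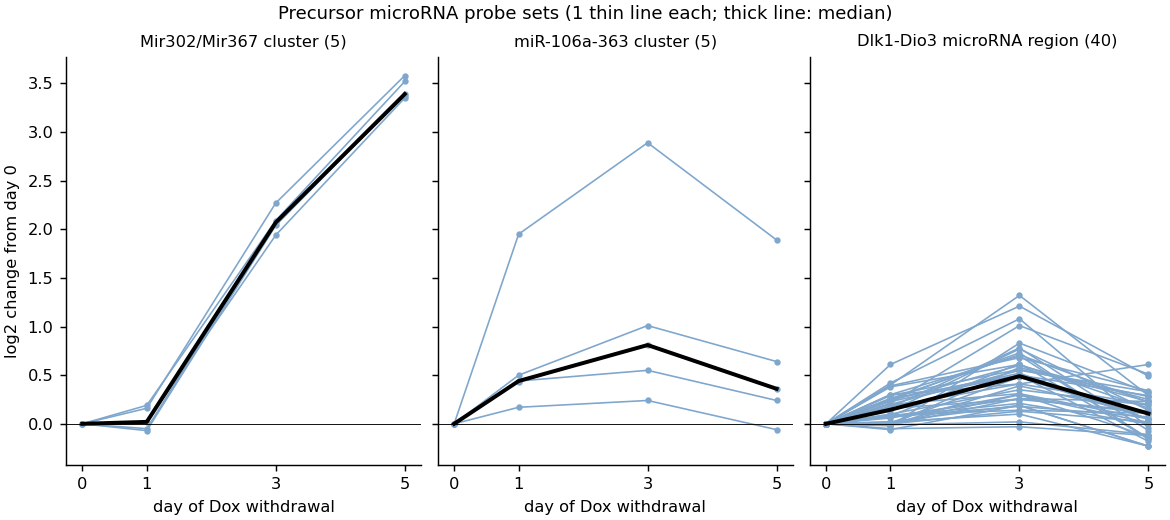
Log2 change from day 0 (vertical axis) against day of Dox withdrawal (horizontal axis) for microRNA precursors of 3 genomic clusters, with 1 thin line per precursor and a thick line for the median. The Mir302/Mir367 median goes from 0.02 at day 1 to 2.07 at day 3, while the medians of the other 2 groups are highest at day 3 (0.81 and 0.49).

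Over all genes, 2690 were higher and 2604 lower at day 3 (adjusted p under 0.05, limma), which is 13.5% and 13.1% of those tested. The list counts that follow are to be read beside these shares. Most of these changes were small: the median size of a called change was 0.35 on the log2 scale and 71.2% of called changes were under 0.5. By more than 2-fold, 138 genes rose and 203 fell, 0.692% and 1.02% of all genes, and by more than 4-fold 10 rose and 25 fell. Every day 3 array lay above every day 0 array for 19.8% of genes and below for 19.4%. The arrays of the 2 days correlated across genes with r of 0.986 to 0.988, against 0.996 to 0.998 within a day, and no array stood apart. Between days 1 and 3, 9.19% of genes rose and 11.6% fell. Among called genes 50.8% were higher. When each array was centred on its median, which shifted the median change to -0.04, that share was 40.4%, with 2173 genes higher and 3207 lower, so small changes near this size depend on the centring.

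**Figure D2:**
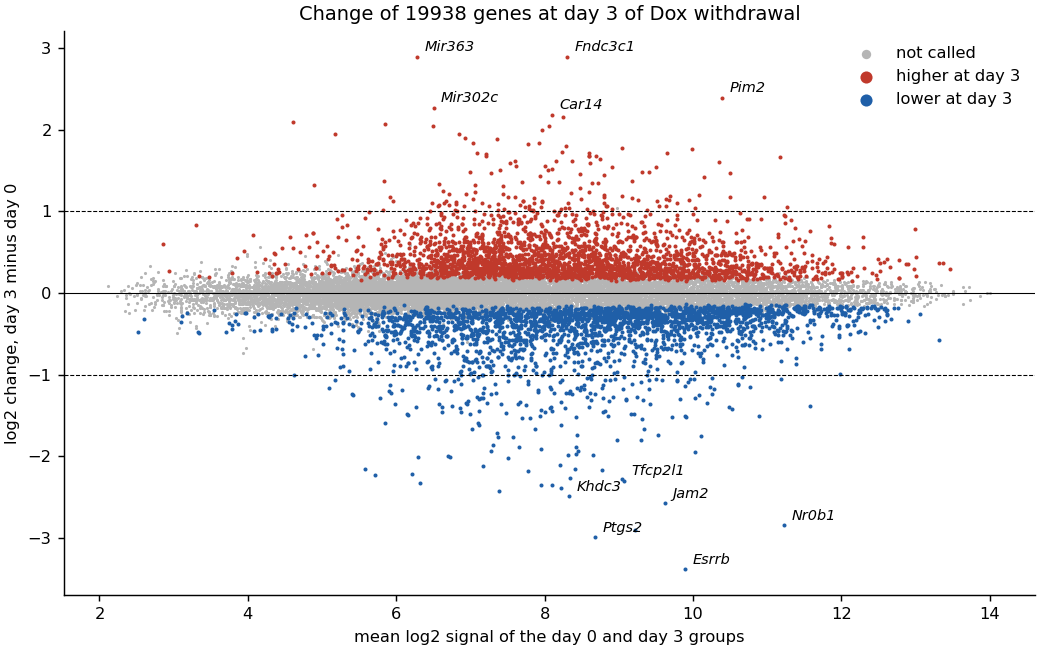
Log2 change at day 3 against the mean log2 signal of days 0 and 3 for 19938 genes, with genes called higher in red, lower in blue and the rest in grey, and dashed lines at 2-fold. The largest fall is that of Esrrb (-3.38), and the largest rises are those of Fndc3c1 and Mir363 (2.89 each).

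Esrrb, the targeted gene, read 11.59, 11.54 and 11.63 at day 0 and 8.20, 8.07 and 8.34 at day 3. The array reads endogenous and exogenous Esrrb messages together as far as its probes match both. The paper reports that the hairpin leaves the endogenous message undetectable. The differences of the relatives of Esrrb, -0.13 for Esrra (adjusted p = 0.1) and -0.09 for Esrrg (adjusted p = 0.43), did not pass the test. Nr0b1 (Dax1), an orphan receptor that partners Esrrb in ESC, read 12.64, 12.67 and 12.64 at day 0 and 9.89, 9.88 and 9.66 at day 3 (change -2.84, standard error 0.12, adjusted p = 5.2e-09). The receptor Nr5a2, which can activate Oct4, fell (-1.41), and Nr6a1, the germ cell nuclear factor that represses Oct4 during differentiation, rose from 9.13, 9.09 and 9.10 to 9.96 on all 3 arrays (change 0.85, adjusted p = 2.0e-07). Oct4 itself (Pou5f1) was not called at day 3 (-0.12, adjusted p = 0.25). The coactivators Ncoa3 (-0.55) and Ncoa1 (-0.42) fell. Of 32 measured nuclear receptors and coregulators 5 were higher and 7 lower, beside 13.5% and 13.1% of all genes, so the higher count is near that of all genes. The higher count was 3 without day 0 replicate 2, without day 3 replicate 3 or with median centring.

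All 11 transcription factors listed for naive pluripotency were lower at day 3, with no array of day 3 reaching a day 0 array, against 13.1% of all genes called lower. Tfcp2l1, a target of Stat3, read 10.20, 10.22 and 10.24 at day 0 and 8.09, 7.60 and 8.06 at day 3 (change -2.30, standard error 0.11, adjusted p = 1.3e-08). Tcl1, a cofactor of Akt, fell (-1.97), as did Tbx3 (-1.52) and Zfp42 (Rex1, -1.42). The falls of Klf4 (-0.85), Nanog (-0.62), Prdm14 (-0.62) and Klf5 (-0.55) were smaller than 2-fold. Of the 11 factors 4 were higher at day 5 than at day 3 and 1 was lower, beside 13.0% and 12.2% of all genes. Tfcp2l1 (0.56), Klf4 (0.48), Nanog (0.37) and Klf5 (0.28) were higher again at day 5 than at day 3. Among 8 other naive markers 7 were lower. Jam2, a junction adhesion molecule, read 10.90, 10.95 and 10.86 at day 0 and 8.38, 8.24 and 8.39 at day 3. Khdc3 (-2.49) and Ooep (-1.30), members of a maternal protein complex of the egg, and Mras (-1.76), a Ras-related GTPase, also fell. Dppa3 (Stella) alone of the 19 genes did not pass the test (0.05).

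Genes of general pluripotency went in both directions, with 14 of 28 lower and 4 higher. Sox2 fell by 0.39, while Sall4 (-0.01, adjusted p = 0.95) and Zscan10 (-0.03, adjusted p = 0.72) were not called. Rnf125 (-1.22), Dppa2 (-1.15), Dppa4 (-0.48) and Krr1 (-0.28), which the paper links with Zscan10 to Oct4 and Sox2 in its core network, fell. Zfp57, which protects imprinted methylation, fell from 12.33, 12.31 and 12.16 to 10.95, 10.83 and 10.89 (change -1.38, adjusted p = 8.2e-08), and the cell cycle factor Mybl2 fell by 0.67. The RNA-binding proteins that block let-7 processing rose: Lin28b read 8.34, 8.17 and 8.10 at day 0 and 9.47, 9.35 and 9.39 at day 3 (change 1.20, standard error 0.08, adjusted p = 3.2e-07), and Lin28a rose by 0.52. Lefty1, an inhibitor of Nodal, rose by 0.97. Of 22 genes of the primed epiblast 12 were higher and 3 lower, with a median of 0.45. Car14, a carbonic anhydrase, read 6.81, 7.11 and 7.11 at day 0 and 9.37, 9.22 and 8.98 at day 3 (change 2.18, adjusted p = 8.4e-09). Zic2 (1.77), Fgf5 (1.71) and Sall2 (1.21) rose more than 2-fold, and Dnmt3b, a de novo methyltransferase, by 0.76. Its partner Dnmt3a fell (-0.57), as did the Erk-dependent factor Etv4 (-0.85). Car14, Dnmt3b and Sall2 were lower at day 5 than at day 3 (-1.10, -0.80 and -0.48).

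**Figure D3:**
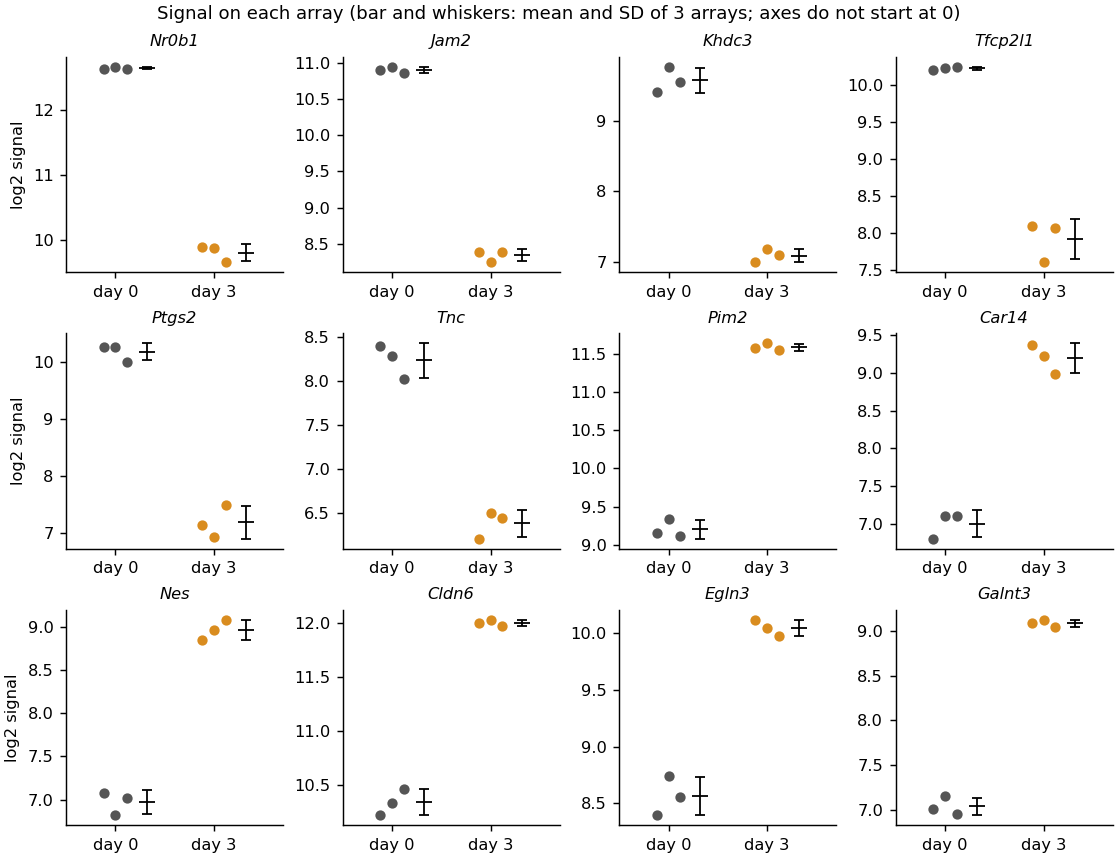
Log2 signal on each of the 3 day 0 arrays (grey) and 3 day 3 arrays (orange) for 12 genes, with the mean and SD of each group. In every panel the groups are apart, as for Nr0b1 (12.64 to 12.67 against 9.66 to 9.89) and Cldn6 (10.22 to 10.46 against 11.97 to 12.03).

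Genes of glycolysis and of the response to low oxygen were mostly higher at day 3. Of 16 genes of the hypoxia response, which are Hif factors, their hydroxylases and genes known to be induced by them, 12 were higher and 1 lower (median 0.70), and of 20 genes of glycolysis and its transporters 13 were higher and 3 lower (median 0.33). Egln3, a prolyl hydroxylase that marks Hif for destruction and is itself a Hif target, read 8.40, 8.74 and 8.56 at day 0 and 10.12, 10.05 and 9.98 at day 3 (change 1.48, standard error 0.16, adjusted p = 1.4e-05). Egln1, the main such hydroxylase, rose by 1.10, the mitophagy protein Bnip3 by 1.05, the carbonic anhydrase Car12 by 1.12, the peptide hormone Adm by 1.04 and the oxidoreductase Ero1a by 0.95. Hif1a was the 1 lower (-0.26), but leaving out replicate 2 of day 0 or replicate 3 of day 3 ended that call (adjusted p 0.062 and 0.052), while its relative Epas1 rose by 0.71. Among glycolytic genes the glucose transporter Slc2a1 read 12.56, 12.58 and 12.67 at day 0 and 13.40, 13.37 and 13.38 at day 3 (change 0.78, adjusted p = 1.8e-07). The lactate transporter Slc16a3 rose by 0.91, the regulator Pfkfb3 by 1.03 and the aldolase Aldoc by 1.14. Ldhb, the heart form of lactate dehydrogenase, fell from 10.60, 10.65 and 10.72 to 9.19, 9.10 and 9.12 (change -1.52, adjusted p = 1.4e-07), whereas Ldha rose by 0.37. Fbp2, an enzyme of the reverse pathway, gluconeogenesis, was among the 15 largest falls (-2.39). The fall of the hexokinase Hk1 (-0.25) was lost with its brightest probe set (-0.06, adjusted p = 0.63).

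Subunits of the respiratory complexes, which make ATP with oxygen, were flat or lower. Of 33 measured subunits none was called higher by limma (0 also at an unadjusted p under 0.05) and 8 were lower (median -0.10), among them Cox7a1 (-0.62), Atp5g1 (-0.42) and Cox5a (-0.32). Of 20 mitochondrial regulators and Krebs cycle enzymes 10 were lower, including Sucla2 (-0.61), Gabpa (-0.55), a factor for respiratory genes, and Idh1 (-0.46, the cytosolic isocitrate dehydrogenase). Polg, the mitochondrial DNA polymerase, was higher (0.89, adjusted p = 4.4e-07). It was 1 of 3 higher members among all 53, a count of 1 without day 3 replicate 1, without day 3 replicate 3 or with median centring.

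Lipid synthesis genes rose with a small size. Of 18 genes of sterol synthesis 10 were higher and none lower (limma, 0 lower also at an unadjusted p under 0.05, median 0.23), and of 13 of fatty acid synthesis 9 were higher and 2 lower (median 0.31). Insig1, a sterol sensor that restrains this pathway, read 10.72, 10.83 and 10.75 at day 0 and 11.74, 11.74 and 11.66 at day 3 (change 0.94, adjusted p = 6.8e-07). The epoxidase Sqle rose by 0.44, the reductase Dhcr7 by 0.42 and the desaturase Scd2 by 0.56. The elongases Elovl6 (-0.60) and Elovl7 (-0.83) were the 2 lower members.

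**Figure D4:**
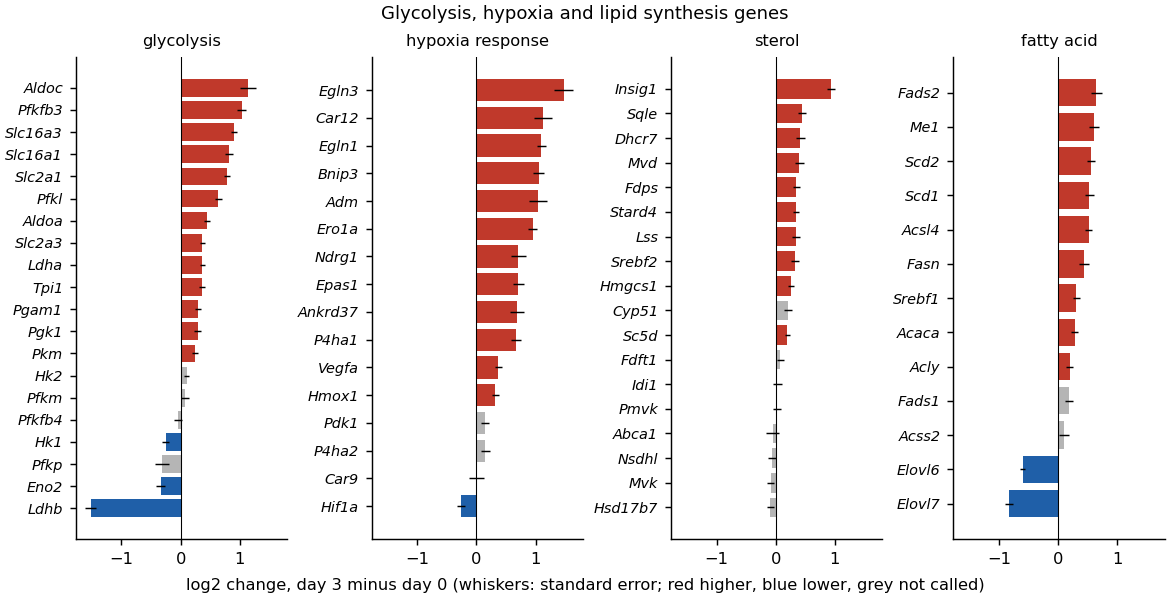
Log2 change at day 3 for the measured genes of glycolysis, hypoxia response, sterol and fatty acid synthesis, with standard errors as whiskers, genes called higher in red, lower in blue and not called in grey. Egln3 (1.48) and Ldhb (-1.52) are the extremes.

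Genes of cell junctions changed in both directions: of 23 cadherin, claudin and tight junction genes with their regulators, 9 were higher and 4 lower. The largest change among them was the fall of Jam2 (-2.57), and the other lower members were Cdh11, Zeb1 and the catenin Ctnna1 (-0.19). Claudins seal tight junctions, and Cldn6 read 10.22, 10.33 and 10.46 at day 0 and 12.00, 12.03 and 11.97 at day 3 (change 1.66, standard error 0.07, adjusted p = 5.2e-09). Cldn7 rose by 1.68, the splicing regulator Esrp1, which sets epithelial isoforms, by 1.71, and Ocln (occludin) by 1.31. The epithelial cadherin Cdh1 rose by 0.32. Zeb1, a repressor of Cdh1, fell (-1.40), and the mesenchymal cadherin Cdh11 read 8.32, 8.25 and 8.17 at day 0 and 6.67, 6.24 and 6.55 at day 3 (change -1.76, adjusted p = 4.4e-07). Snai2, a related repressor, fell (-0.98).

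Of 45 matrix and integrin genes 14 were higher and 18 lower, and the collagens, laminins and other matrix proteins among them split into 9 higher and 9 lower of 23 (median -0.07). Tnc, a glycoprotein of remodeled tissue, fell from 8.40, 8.29 and 8.02 to 6.20, 6.49 and 6.44 (change -1.86, adjusted p = 2.4e-07), as did Lox, which crosslinks collagen (-2.43), Col1a2 (-1.44) and Thbs1 (-1.40). The higher members included the basement membrane proteins Lama5 (0.75) and Lamc1 (0.42). Fibroblast markers fell beside these genes: 9 of 17 were lower and 1, Thy1, was higher (median -0.21), and their mean log2 signal per array ran from 7.18 to 7.28 at day 0 and from 6.83 to 6.86 at day 3. The lower members included Prrx1 (-1.29), Vim (-0.99) and Col1a1 (-0.98), while the defining markers Pdgfrb (0.06), Fap (0.09) and Lum (-0.08) did not pass the test. The part of remaining feeder cells in the falls of matrix genes was not tested. Without genes below the median brightness 4 fibroblast markers and 11 rather than 18 of the matrix and integrin genes were called lower, since fewer genes entered that fit. The call of Thy1 was lost without day 0 replicate 2, day 3 replicate 1 or day 3 replicate 2, with adjusted p of 0.067, 0.05 and 0.068.

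Signaling pathways changed at named points. In the Lif pathway Pim2, a survival kinase, read 9.15, 9.34 and 9.11 at day 0 and 11.58, 11.64 and 11.55 at day 3 (change 2.39, adjusted p = 1.3e-09) and was called higher with 9 of the 25 members lower. A further member was called higher without day 5 replicate 2, without dim genes, with quantile normalization or with another variance model. The lower members were 2 of 8 ligands, receptors and kinases and 7 of 17 targets and inhibitors. The former were the receptor subunit Il6st (-0.29) and Jak1 (-0.30), both higher at day 5 than at day 3 (0.36 and 0.50). The latter included Gbx2 (-0.81) and 2 of the naive factors above, Tfcp2l1 (-2.30) and Klf4 (-0.85). Of 13 Fgf ligands and receptors 4 were higher and 3 lower: the ligands Fgf5 (1.71) and Fgf15 (0.87) rose, while the receptor Fgfr2 (-1.48) and the coreceptor Klb (-1.05) fell, and of 19 pathway and feedback genes 10 were lower and 3 higher, with Dusp4 at -0.81 and Il17rd, a feedback inhibitor, at 0.79. Bmp4 read 9.39, 9.55 and 9.33 at day 0 and 7.57, 7.37 and 7.53 at day 3 and rose by 1.64 between days 3 and 5. The activin subunit Inhba fell by 1.53, and of 14 Nodal, activin and Bmp ligands 7 were lower and 2 higher. Of 29 receptors, inhibitors and targets of these pathways 13 were higher and 5 lower.

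Of 14 Notch genes 8 were higher and 1 lower. The receptor Notch3 rose by 0.80, the ligands Dll3 by 0.71 and Jag2 by 0.52, while Rbpj, the DNA-binding effector of the pathway, fell from 10.65, 10.45 and 10.33 to 9.31, 9.37 and 9.48 (change -1.09, adjusted p = 1.9e-05). In the hedgehog pathway the signal transducer Smo rose from 8.18, 8.30 and 8.27 to 9.30, 9.43 and 9.30 (change 1.10, adjusted p = 1.1e-06) and Gli3 by 0.61, while Gli2 fell by 0.68. Tead2, a DNA-binding partner of Yap, rose by 1.14, and Tead4 fell by 0.70. Of the 41 measured genes of these pathways 21 were higher and 5 lower, and 8 were lower with median centring or without dim genes. In Wnt signaling 18 of 54 genes were higher and 8 lower, beside 13.5% and 13.1% of all genes. They included the antagonist Sfrp2 (1.15), the receptor Fzd3 (0.94), the ligand Wnt5a (-1.27) and the receptor Fzd5 (-0.72). Axin2, a target of the pathway, fell (-0.68), though not when replicate 3 of day 3 was left out (adjusted p = 0.053).

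Prostaglandins are lipid signals made from arachidonic acid, and their genes changed in both directions. Ptgs2, the inducible cyclooxygenase, read 10.18 ± 0.15 (SD, n = 3) at day 0 and 7.14, 6.92 and 7.49 at day 3 (change -2.99, standard error 0.15, adjusted p = 2.3e-08), and the phospholipase Pla2g4a, which frees its substrate, fell by 1.00. Slco2a1, a prostaglandin transporter, rose by 1.54 and the receptor Ptger3 by 1.07. In all, 4 of 20 genes were higher and 5 lower, beside 13.5% and 13.1% of all genes, and 3 were lower without dim genes.

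DNA demethylases of the Tet family, which oxidize methylcytosine, differed among themselves: Tet2 fell from 9.71, 9.61 and 9.51 to 8.21, 7.93 and 8.15 (change -1.51, adjusted p = 2.3e-07) and Tet1 by 0.79, while Tet3 rose by 0.18. Of 20 genes of DNA methylation 4 were higher and 8 lower. Among Polycomb genes Phf19 (-0.80), Mtf2 (-0.49) and Eed (-0.44) fell and Kdm2b rose (0.49). The histone methyltransferase Setd7 rose by 1.10, the remodeler Chd7 by 0.74, and Smarcd3, a subunit of the Swi/Snf complex, fell (-0.93). Of 68 genes for Polycomb, histone and remodeling enzymes 15 were higher and 15 lower, beside 13.5% and 13.1% of all genes. The higher count was 7, 9 and 8 without day 3 replicate 2, without day 3 replicate 3 and with median centring. Of 22 imprinted genes 9 were higher and 1, Dcn, was lower (-0.39), a call lost without day 0 replicate 2 or any day 3 array and with quantile normalization. Peg3 (0.94) and Grb10 (0.69) rose with Meg3.

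Enzymes that build surface glycans split evenly, with 8 of 28 higher and 8 lower. Galnt3, which starts mucin-type glycans, read 7.01, 7.15 and 6.96 at day 0 and 9.09, 9.12 and 9.04 at day 3 (change 2.04, standard error 0.07, adjusted p = 1.3e-09), and the sialyltransferase St6gal2 rose by 1.94. The ganglioside enzymes St8sia1 (-1.88) and St3gal5 (-1.36) fell, both by more than 2-fold. Without day 3 replicate 1 the higher count was 5. The clock repressors Bhlhe41 and Bhlhe40 rose by 1.90 and 1.22 and the clock activator Arntl fell by 0.61, among 16 clock genes with 5 higher and 1 lower. Ddit4, an inhibitor of mTOR complex 1 induced by stress, rose from 8.78, 9.23 and 9.30 to 10.90, 10.80 and 10.90 (change 1.76, adjusted p = 1.3e-07), and the lipoprotein receptor Vldlr by 1.68. Of 21 interferon-stimulated genes 5 were higher and 4 lower with a median of 0.03, among them the guanylate-binding proteins Gbp2b (1.36) and Gbp3 (1.06), the factor Irf1 (0.56) and the RNA sensor Ddx58 (-0.74).

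Neural genes did not move one way, with 8 of 33 higher and 11 lower. Nes, an intermediate filament of neural progenitors, read 7.08, 6.82 and 7.02 at day 0 and 8.85, 8.96 and 9.08 at day 3 (change 1.99, adjusted p = 4.4e-07) and Kif1a, an axonal kinesin, rose by 2.16, while Ncam1 (-1.44) and Neurod1 (-1.34) fell. None of 36 genes of primitive streak and mesoderm was called higher by limma and 9 were lower. At an unadjusted p under 0.05 there were 3 higher, and 1 was called with another variance model, without dim genes, with the 6 arrays alone, and without day 0 replicate 2, day 3 replicate 2 or day 5 replicate 1. Trophectoderm genes had 3 of 17 higher and 4 lower, and those of primitive and visceral endoderm had 8 of 21 higher and 1 lower. The 1 lower endoderm gene was the transcription factor Gata6 (-0.27), a call lost when some single arrays were left out. The higher ones included Ttr (0.84) and the basement membrane genes Lamc1 (0.42), Lamb1 (0.35) and Col4a2 (0.34). Of 14 keratin and desmosome genes 5 were higher and 1 lower, with Krt19 at 1.37 and Krt18 at 0.65. Cell cycle genes had 8 of 46 higher and 6 lower, beside 13.5% and 13.1% of all genes. They had a median of 0.00 and differences between -0.55 and 0.52 (10 lower with another variance model). Of 14 housekeeping genes 2 were higher and 1 lower, also with a median of 0.00. Hprt, often used as a reference gene, was the 1 lower (-0.65, adjusted p = 3.2e-06), with 2 lower without day 0 replicate 3, with median centring or with another variance model and 3 without dim genes.

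**Figure D5:**
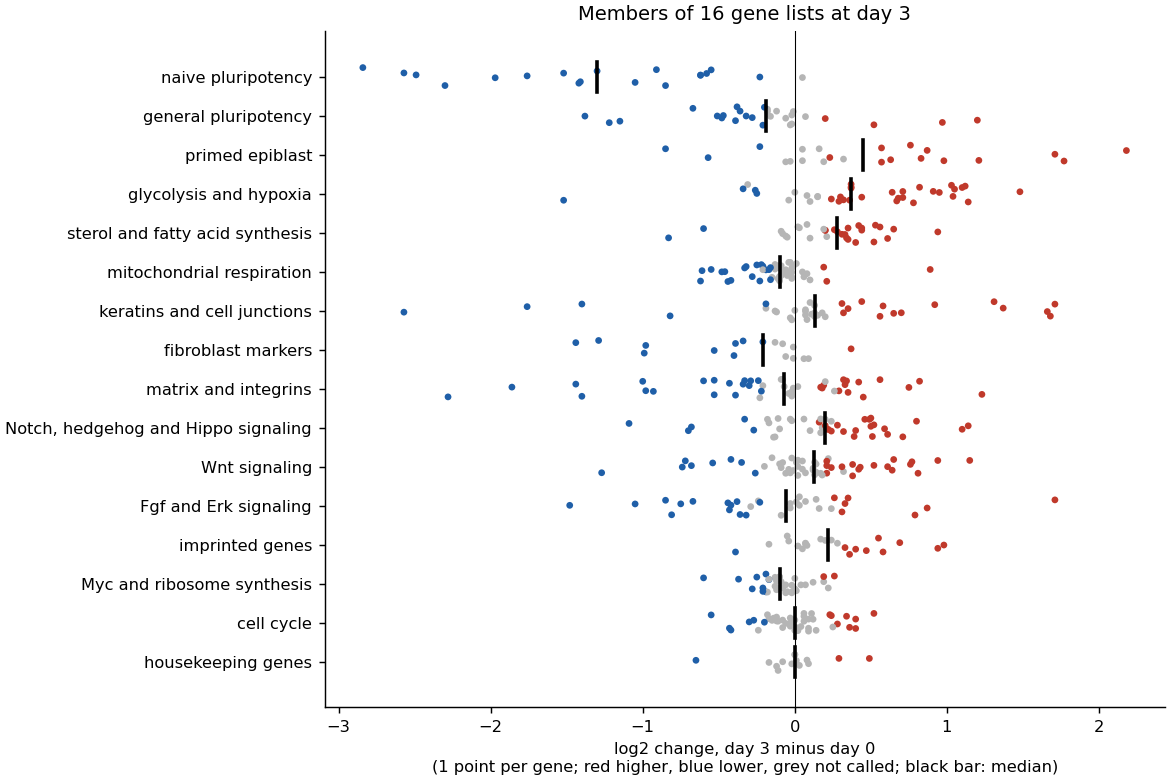
Log2 change at day 3 for the members of 16 gene lists, with 1 point per gene (red higher, blue lower, grey not called) and a black bar at each list's median. Medians run from -1.30 for naive pluripotency to 0.45 for primed epiblast, with cell cycle and housekeeping genes at 0.00.

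The promoters of changed genes were searched for TCAAGGTCA, the sequence Esrrb binds, on both strands between 250 bases before and 50 after the start (RefSeq, GRCm38.p6). It was found for 5 of 2085 genes called lower (0.24%), 4 of 2088 called higher (0.192%) and 45 of 11441 not called (0.393%), and for 54 of all 15614 genes with a promoter (0.346%). Of the 157 genes that fell by more than 2-fold and have a promoter in the table, none held it. The largest falls among the carriers were those of Bhmt, a methyltransferase of methionine metabolism (-0.55), and Sgms1, a sphingomyelin synthase (-0.45), both chosen after their values were seen. Their sites are shown on the motif strand with the match in capitals, at chr13:93637815-93637843 and chr19:32349339-32349367 and on the minus strand.

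Bhmt: tgaccccagaTCAAGGTCAgaggcctgct
Sgms1: ccttcctggaTCAAGGTCAtacatgatta

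The octamer ATGCAAAT, bound by Oct4, stood in 2.06% of promoters of genes called higher, 1.82% of those called lower and 1.89% of the rest, in 1.9% of all, in 6 of the 102 rises over 2-fold and in 2 of the 157 falls over 2-fold. The E-box CACGTG stood in 12%, 11.2% and 8.73%, in 9.5% of all, and in 12 of the 102 and 14 of the 157. No motif of these contains another. These shares are descriptions, and the window does not cover distal enhancers.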

How the data were processed

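Probes made from total RNA of Esrrb_R cells at days 0, 1, 3 and 5 were hybridized to 12 arrays, 3 per day. The authors normalized the arrays with RMA in Affymetrix Expression Console and the deposited table gives log2 values by probe set (its version was not given in the sources used here). RMA compresses low signals, which can make changes of dim genes look smaller. Arrays have no read depth, and the number of arrays limits the precision. Of 35557 probe sets, 21789 with 1 symbol in the platform annotation were averaged into 19938 genes, 1621 with several symbols and 12147 with none were left out. Differences were tested with limma 3.58.1 (R 4.3.3) on all 12 arrays, fitting each day's mean and leaving 8 residual degrees of freedom, as the contrast of day 3 with day 0. P-values were adjusted over all 19938 genes (Benjamini-Hochberg), and those under 0.05 were called. Errors given with a change are standard errors from this fit. A two-sided exact permutation test of a single gene on 3 and 3 arrays cannot go below p = 0.1. In data simulated for this comparison with 19938 genes, log2 changes of 0.5, 1 and 2 were given to 67, 67 and 66 genes. A change of 0.5 was found in 80.6% of the genes given it, a change of 1 or 2 in all, and there were 7 false calls. Far fewer genes changed there than the 5294 called in the real data, so the share found and the false calls need not carry over.

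The members and the 33 gene lists were chosen with earlier results of these data known. Of 1093 list entries 1025 had a value. Genes were named by a rule: Esrrb and genes the paper names, the 15 largest rises and 15 largest falls without overlap (leaving out clone and model symbols), and in each role of a list the 4 called members with the smallest adjusted p and 2 of the other direction. Other named genes, the microRNA clusters (taken by position in RefSeq, GRCm38.p6) and the comparison with the Mir17 cluster were chosen after their values were seen. Alternatives were the replicate number as a block, only the 6 arrays of days 0 and 3, each array left out, quantile normalization, median centring, no dim genes, another variance model, the brightest probe set, every probe set, and the methods' one-way analysis of variance with Bonferroni adjustment. Tables and plots were made with Python 3.11.15, pandas 2.3.3 and Matplotlib 3.10.9.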

Additional observations from a re-analysis of the deposited data

Results flagged for a closer look

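For 17 named genes the change from day 0 had opposite signs at day 3 and at day 1 or 5, with a size over 0.25 on the log2 scale on that other day, and a called difference between those days (limma, adjusted over all genes). The side of day 0 is that of the estimates, which were not all called against day 0 on the other day. Smaller turns of sign are not listed. Between days 3 and 5 the difference was 2.11 for Acta2, 1.71 for Thbs1, 1.10 for Eomes, 1.02 for Plk2, 0.83 for Atf3, 0.61 for Gata6 and 0.53 for Wwtr1, which were lower than day 0 at day 3 and above it at day 5. It was -1.62 for Fgf15, -0.98 for Ptch1, -0.98 for Tdrd1, -0.65 for Thy1 and -0.65 for Phc1, which were higher at day 3 and below day 0 at day 5. Between days 1 and 3 it was -1.12 for Gbx2, -1.07 for Myc, -1.01 for Hesx1, -0.54 for Slc7a7 and -0.47 for Ino80, which stood above day 0 at day 1 and below it at day 3. The day 3 calls of Eomes, Gata6, Thy1, Phc1, Slc7a7 and Ino80 were each lost when some single arrays were left out.

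Probe sets without a usable gene name also differed between days 3 and 0. Of 12147 probe sets with no symbol 520 were higher and 370 lower, and of 1621 with several symbols 107 were higher and 143 lower.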

How the results depend on the processing

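Leaving out each of the 12 arrays in turn gave 2194 to 2799 genes higher and 2044 to 2654 lower, 131 to 151 higher and 192 to 217 lower by more than 2-fold, and a change of Esrrb from -3.45 to -3.32. Without dim genes 135 genes were lower by more than 2-fold, as fewer genes were tested. The methods' analysis of variance with Bonferroni adjustment called 398 genes higher and 373 lower, and 69 and 119 by more than 2-fold. It tests for a difference anywhere among days 0, 1, 3 and 5, and the direction is that of day 3 against day 0. Such a call therefore need not rest on day 3. No named gene was reversed under the alternatives run. Of 277 called genes among the 282 named besides Esrrb, 23 lost the call under at least 1 alternative other than the methods' test and 162 under that test. Of 66 list counts 22 moved by over 1.5 times under at least 1 alternative other than the methods' test, which lowered most of these counts. Chosen after seeing the data, the same alternatives except the methods' test and the fit without dim genes gave 23 to 27 precursors higher of the 40 in the Dlk1-Dio3 region, 5 of 5 for Mir302/Mir367 and 3 to 5 of 5 for miR-106a-363. Same-numbered arrays of days 0 and 3 did not deviate together (correlations -0.06, -0.17 and -0.03), so the numbers were not taken as pairs, and the fit with the replicate block called 2502 genes higher and 2397 lower. Precision is limited by the 3 arrays a day.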
